A study of Mus musculus with 37 samples.

Results

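The classical protein tyrosine phosphatases are enzymes that remove phosphate from tyrosine residues of proteins and so oppose the tyrosine kinases. One branch is cytosolic and carries Ptpn symbols, the other spans the plasma membrane and carries Ptpr symbols, and its extracellular domains resemble those of adhesion molecules. Ptpn1 encodes PTP1B, an enzyme anchored to the endoplasmic reticulum that dephosphorylates the insulin receptor and the kinase JAK2, through which prolactin signals in the mammary gland. Members were all genes whose single annotated symbol was Ptpn or Ptpr followed by its letter or number, each read from the probe set with the highest mean. That gave 37 of the 19937 genes on the array, among them Ptpn1 itself, and 36 were bright enough to be tested. The one left out was Ptpn20, which lay between 4.10 and 4.42 in KO glands and between 4.04 and 4.68 in WT glands on the log2 scale.

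Mammary gland RNA was measured in PTP1B knockout (KO) and wild-type (WT) females, 37 arrays in all. The knockout allele, PTP1B-/-, is a germline one, so that the protein is lost from every cell type and not from the gland alone, and it had been crossed to the FVB strain for at least 7 generations. Females were mated at 12 weeks and received no treatment. The KO groups held 4, 3, 5, 3 and 4 arrays at P0, P3, P7, P10 and P15, and the WT groups 4, 3, 4, 3 and 4, where P0 is a nulliparous female in oestrus, labelled virgin, and the other numbers are days of pregnancy. The labels do not say whether replicates came from separate animals, so p-values measure the spread between these arrays, which may be partly technical. The question was whether other members of the family differed where Ptpn1 was lost, apart from those of blood cells. Values are log2 intensities, and differences are KO minus WT on that scale with the standard error. A gene is said to be called, or to have risen or fallen, where its adjusted p from limma, over 16865 genes, was below 0.05. Counts at an unadjusted p below 0.05 are given without the share of all genes.

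Array medians lay between 6.52 and 6.79. All 10 luminal epithelial markers and the 7 measured milk protein genes were above the brightness filter, and the milk protein score, a mean of log2 values centred on each gene, was 1.71 in KO and 1.74 in WT glands at P15, against -1.07 in KO and -1.16 in WT glands at P0. There were 7 arrays marked as in doubt. KO P10 replicates 2 and 3 and WT P7 replicate 1 were rich in lymphocyte transcripts, WT P0 replicate 4, KO P3 replicate 1 and KO P7 replicate 3 were rich in skeletal muscle transcripts, and the array labelled KO P15 replicate 3 had Ptpn1 at a WT level. Results over the stages and at P10 that move by over 1.5 times or lose a call without these 7 arrays are given both ways. Not among the 7 was WT P0 replicate 3, with a T lymphocyte score of 0.83, against -0.58 to -0.42 in the other WT P0 arrays. Nor was WT P0 replicate 2, with a luminal epithelial score of 0.39, against -1.01 to -0.50 in the other WT P0 arrays. In whole glands, fewer cells of a type and less RNA per cell cannot be told apart.

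Ptpn1 was lower in KO glands at every stage. At P0 it read 5.75, 5.71, 6.49 and 5.55 in KO glands, against 8.70, 8.75, 9.06 and 8.61 in WT glands, and the groups did not overlap. They were as far apart at P3 (5.73, 5.94 and 5.92 in KO glands, against 8.69, 8.92 and 8.69 in WT glands) and at P10 (5.87, 6.03 and 6.28 in KO glands, against 8.94, 8.65 and 8.75 in WT glands). Values at P7 were 5.67, 5.46, 5.79, 6.06 and 5.57 in KO glands, against 7.90, 8.77, 8.56 and 8.74 in WT glands, the lowest WT value being that of the lymphocyte-rich array. At P15 the KO values were 5.70, 5.40, 8.68 and 5.36, against 8.61, 8.02, 8.94 and 8.50 in WT glands, so the groups overlapped through 1 array. The mean difference over the 5 stages was -2.71 ± 0.19 (limma adjusted p = 8.52e-11), and -2.87 without the array labelled KO P15 replicate 3. At P15 the difference was -2.23 with that array and -3.03 without it. Only at P3 did leaving out 1 array lose the call, KO P3 replicate 3 (adjusted p = 0.0839).

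**Figure D1:**
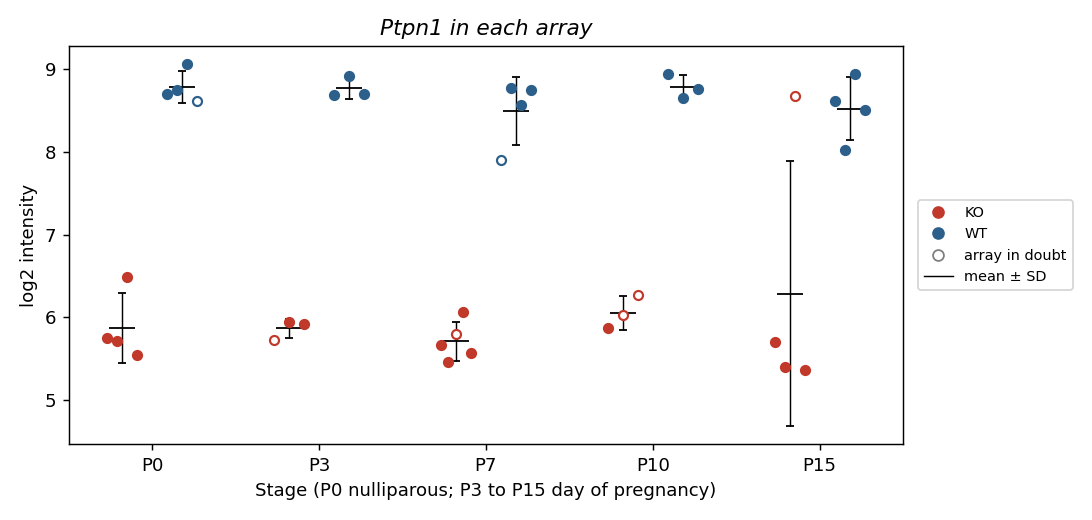
Log2 intensity of Ptpn1 (vertical axis) in each array by stage, with KO arrays in red left of WT arrays in blue, open points for the 7 arrays in doubt, and the mean ± SD of each group in black. All KO arrays lie between 5.36 and 6.49 except the open point at 8.68 at P15, which lies among the WT arrays.

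Averaged over the 5 stages, 4 of the 36 tested members were called, beside 2.43% of all genes tested (1.3% higher and 1.13% lower). Apart from Ptpn1 these were Ptpn18 and Ptpn22, which rose in KO glands, and Ptprs, which fell. Ptpn22 belongs to the blood cell list (Ptprc, Ptpn6, Ptpn7 and Ptpn22), so 2 of the 31 members outside Ptpn1 and that list were called. The median difference of those 31 was -0.03, beside -0.01 for all genes. The other 29 had differences between -0.27 for Ptprb and 0.12 for Ptpn2, with standard errors between 0.03 and 0.13. Without the 7 arrays in doubt the calls were Ptpn1 and Ptpn18, beside 0.35% of all genes, and Ptpn1 alone was called without P10 (0.356% of all genes), without KO P10 replicates 2 and 3 (0.13%) and after adjustment for the lymphocyte and muscle scores (0.368%).

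**Figure D2:**
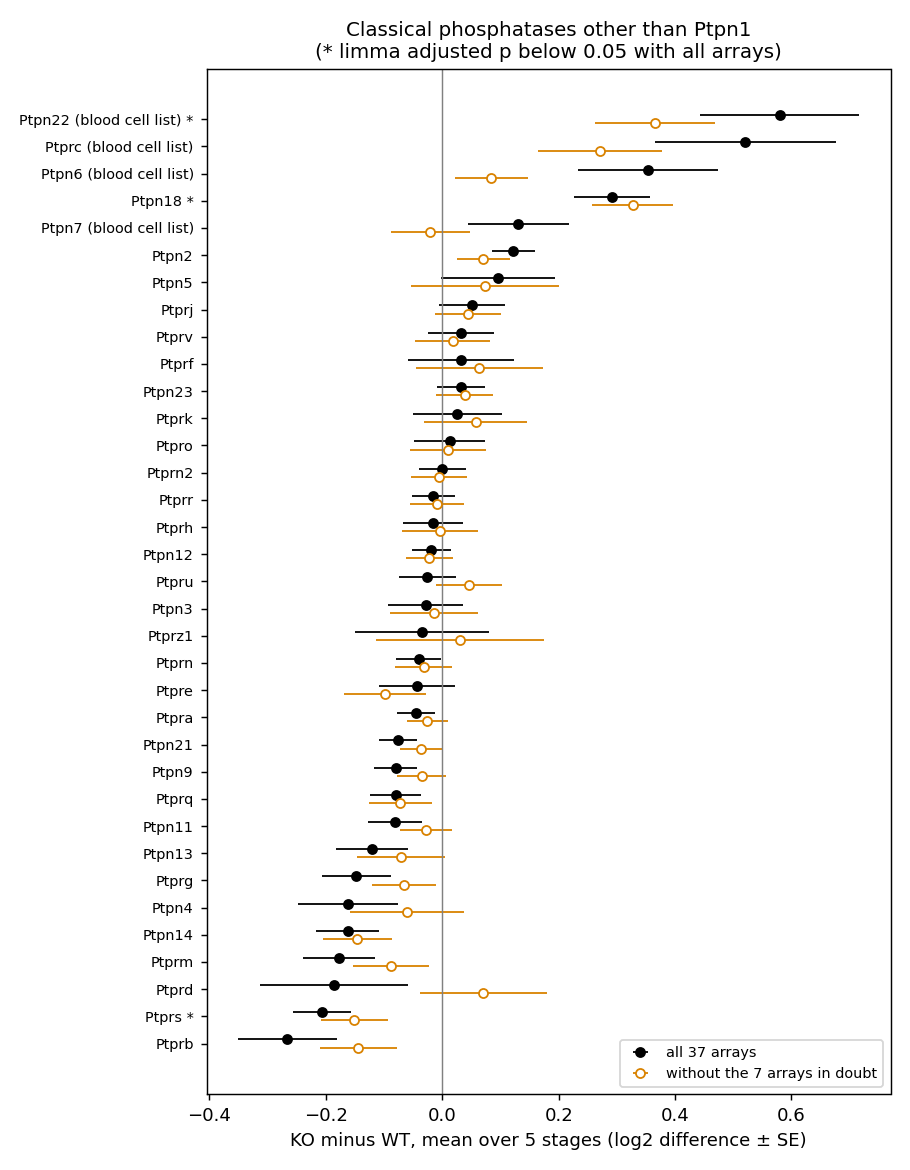
KO minus WT difference averaged over the 5 stages (log2, horizontal axis, ± SE) for the 35 tested members other than Ptpn1, in black with all 37 arrays and in orange without the 7 arrays in doubt. Ptpn18 lies at 0.29 in black and 0.33 in orange, while Ptpn22, Ptprc and Ptpn6 move toward 0 in orange.

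Ptpn18 encodes a phosphatase of the PEST group, named for a tail rich in proline, glutamate, serine and threonine, and is known to dephosphorylate the receptor kinase HER2. At P15 it read 8.64, 8.42, 8.43 and 8.54 in KO glands, against 8.05, 8.23, 8.32 and 8.02 in WT glands. Every KO value there was above every WT value, the array with a WT level of Ptpn1 (8.43) among them. At P10 the values were 7.60, 7.76 and 7.34 in KO glands, against 6.85, 7.24 and 7.27 in WT glands, again without overlap. The groups overlapped at P0, P3 and P7, with 6.67 to 7.06, 6.94 to 7.11 and 6.74 to 7.23 in KO glands, against 6.46 to 6.87, 6.70 to 7.07 and 6.30 to 7.08 in WT glands. Differences at P0, P3, P7, P10 and P15 were 0.17, 0.19, 0.30, 0.45 and 0.35, and 18 of 19 KO arrays were above the WT median of their stage, the exception being KO P0 replicate 1. The difference averaged over stages was 0.29 ± 0.06 (limma adjusted p = 0.015), and it stayed between 0.26 and 0.32 with each of the 37 arrays left out in turn, with adjusted p at most 0.039. Without the 7 arrays in doubt it was 0.33 (adjusted p = 0.0377). The call was lost, at about the same size of difference, after adjustment for lymphocyte and muscle scores (0.27, adjusted p = 0.0783), without P10 (0.25, adjusted p = 0.0921) and without KO P10 replicates 2 and 3 (0.30, adjusted p = 0.0693).

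The other PEST members are Ptpn12, known to act on the adhesion scaffold p130Cas, and Ptpn22, a restraint on lymphocyte receptor signalling. Ptpn12 averaged 9.49 ± 0.14 in KO glands and 9.51 ± 0.13 in WT glands over all stages (SD, n = 19 and 18), a difference of -0.02 that was not called. Ptpn22 read 7.59, 9.39 and 9.77 in KO glands at P10, against 6.87, 7.02 and 6.78 in WT glands, and its groups overlapped at each of the other stages. Its difference over stages was 0.58 ± 0.14 (limma adjusted p = 0.0224). That call was lost without KO P10 replicate 2 (0.53, adjusted p = 0.0576), without P10 (0.22, adjusted p = 0.396) and without the 7 arrays in doubt (0.37, adjusted p = 0.121).

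Ptprs, which fell, encodes PTP sigma, a receptor of the LAR group that binds proteoglycans. It read 9.43, 9.09 and 9.09 in KO glands at P10, against 9.71, 9.78 and 9.74 in WT glands, with no overlap. At P3 it read 9.31, 9.62 and 9.02 in KO glands, against 9.58, 9.70 and 9.90 in WT glands, where the highest KO array lay inside the WT range. At P0 the KO arrays were the higher ones on average, with 9.91, 10.07, 9.80 and 9.78 in KO glands, against 9.56, 9.90, 9.88 and 9.65 in WT glands. Its differences at P0, P3, P7, P10 and P15 were 0.15, -0.41, -0.19, -0.54 and -0.03, and their mean was -0.21 ± 0.05 (limma adjusted p = 0.0242). The call was lost without KO P10 replicate 2 (-0.20, adjusted p = 0.0582), with the scores as covariates (-0.17, adjusted p = 0.138), without P10 (-0.12, adjusted p = 0.33) and without the 7 arrays in doubt (-0.15, adjusted p = 0.303). Its relatives Ptprf, which encodes LAR, and Ptprd differed by 0.03 (adjusted p = 0.903) and -0.19 (adjusted p = 0.477) and were not called, and without the 7 arrays in doubt they were at 0.06 and 0.07. Of the fibroblast and matrix markers 5 of 10 fell in KO glands over the stages, with a median of -0.26, and their part in the Ptprs and Ptpn18 differences was not tested.

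The promoters of Ptpn1 and of the members outside the blood cell list called over the stages, Ptpn18 and Ptprs, are shown for reference. The Ptpn18 and Ptprs calls were lost in some fits, as given above. The part of promoter letters in any difference was not tested. Each is the 250 bases before the gene's start in RefSeq (GRCm38.p6), written 5′ to 3′ on the gene's strand, with Ptpn1 at chr2:167932077-167932326 (+), Ptpn18 at chr1:34459496-34459745 (+) and Ptprs, the first of 2 windows listed for it, at chr17:56476481-56476730 (-). Capitals mark matches on either strand to a STAT site (TTCNNNGAA), a GC box (GGGCGG) or an E-box (CACGTG), motifs that share no letters at the matches shown.
Ptpn1: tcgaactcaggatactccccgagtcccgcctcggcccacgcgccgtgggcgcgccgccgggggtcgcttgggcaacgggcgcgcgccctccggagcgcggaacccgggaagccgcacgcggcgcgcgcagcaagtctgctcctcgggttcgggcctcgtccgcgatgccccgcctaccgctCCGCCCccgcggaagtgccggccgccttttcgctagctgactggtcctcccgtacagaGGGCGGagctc
Ptpn18: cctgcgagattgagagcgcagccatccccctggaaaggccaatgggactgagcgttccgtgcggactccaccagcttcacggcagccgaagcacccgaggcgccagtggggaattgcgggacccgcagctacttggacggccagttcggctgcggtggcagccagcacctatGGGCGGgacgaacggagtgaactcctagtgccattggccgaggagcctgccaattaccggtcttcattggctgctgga
Ptprs: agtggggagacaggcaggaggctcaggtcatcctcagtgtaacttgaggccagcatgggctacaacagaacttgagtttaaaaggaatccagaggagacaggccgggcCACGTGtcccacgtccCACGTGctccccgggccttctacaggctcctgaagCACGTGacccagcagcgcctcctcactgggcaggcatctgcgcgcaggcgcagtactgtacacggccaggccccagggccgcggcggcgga
None of the 3 windows held the STAT letters, which 7.02% of 32851 windows of this length hold. The GC box occurred at 2 places in Ptpn1, 1 in Ptpn18 and 0 in Ptprs, beside 32.7% of all windows with at least 1. The E-box occurred at 3 places in Ptprs and at 0 in the others, beside 6.02% of all windows with at least 1. These are letter matches and not measured binding sites, and windows were found for 31 of the 37 members.

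Among the members not called over the stages, Ptprb, the endothelial VE-PTP, had a difference of -0.27 ± 0.09 (limma adjusted p = 0.0848), which was -0.14 without the 7 arrays in doubt and -0.09 without P10. Ptpn14, a FERM domain phosphatase that binds the growth regulator YAP, had -0.16 ± 0.05 (adjusted p = 0.0994), was negative at all 5 stages, and was -0.15 without the 7 arrays and -0.10 without P10.

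The nearest relative of Ptpn1 is Ptpn2, which encodes TCPTP, an enzyme that also acts on JAK kinases and STAT proteins. It was not called over the stages (0.12 ± 0.04, limma adjusted p = 0.0711), its value was 0.07 without the 7 arrays in doubt, and its second probe set gave -0.01. At P0 it read 8.23, 8.22, 8.42 and 8.37 in KO glands, against 8.01, 8.14, 7.87 and 7.97 in WT glands, and every KO array was above every WT array. That difference was called (0.31 ± 0.08, adjusted p = 0.0369). The call was lost without WT P0 replicate 1, 3 or 4 and without KO P0 replicate 2, 3 or 4, at values between 0.27 and 0.34 and adjusted p up to 0.128. It was also lost with the mean of both probe sets (0.04, adjusted p = 0.841), after quantile normalisation (0.27, adjusted p = 0.0684) and without the 7 arrays in doubt (0.30, adjusted p = 0.106).

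The other call at P0, where 1.7% of all genes were called (1.27% higher and 0.421% lower), was Ptprj. This gene encodes the receptor CD148, with fibronectin repeats, which acts on growth factor receptors. It read 10.62, 10.66, 10.62 and 10.37 in KO glands at P0, against 10.02, 10.07, 10.33 and 10.01 in WT glands, without overlap. The difference was 0.46 ± 0.12 (limma adjusted p = 0.043). It lost its call in 12 of 37 fits that left out 1 array, 5 of them of P0 arrays (WT P0 replicates 1 and 4 and KO P0 replicates 1, 2 and 3), at values of 0.43 or more and adjusted p up to 0.136. Without the 7 arrays in doubt it was 0.43 (adjusted p = 0.0686), and the mean of its 2 probe sets gave 0.48 (adjusted p = 0.0365). Without those arrays Ptpn1 was the only call at P0, beside 0.617% of all genes, and adjustment for the scores left Ptpn1 and Ptpn2, beside 1.76%. Of the marker lists at P0, macrophage genes had a median difference of 0.56 (7 of 10 with an unadjusted p below 0.05), luminal epithelial genes 0.51 (8 of 10) and myoepithelial genes 0.35 (3 of 10, 2 of them called higher). Their part in the Ptpn2 and Ptprj differences was not tested. Ptprj ran the other way at P15, with 10.38, 10.50, 10.44 and 10.46 in KO glands, against 10.70, 10.75, 10.75 and 10.77 in WT glands. There the KO arrays were all below the WT arrays, and the difference was -0.30 ± 0.12 (adjusted p = 0.11).

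**Figure D3:**
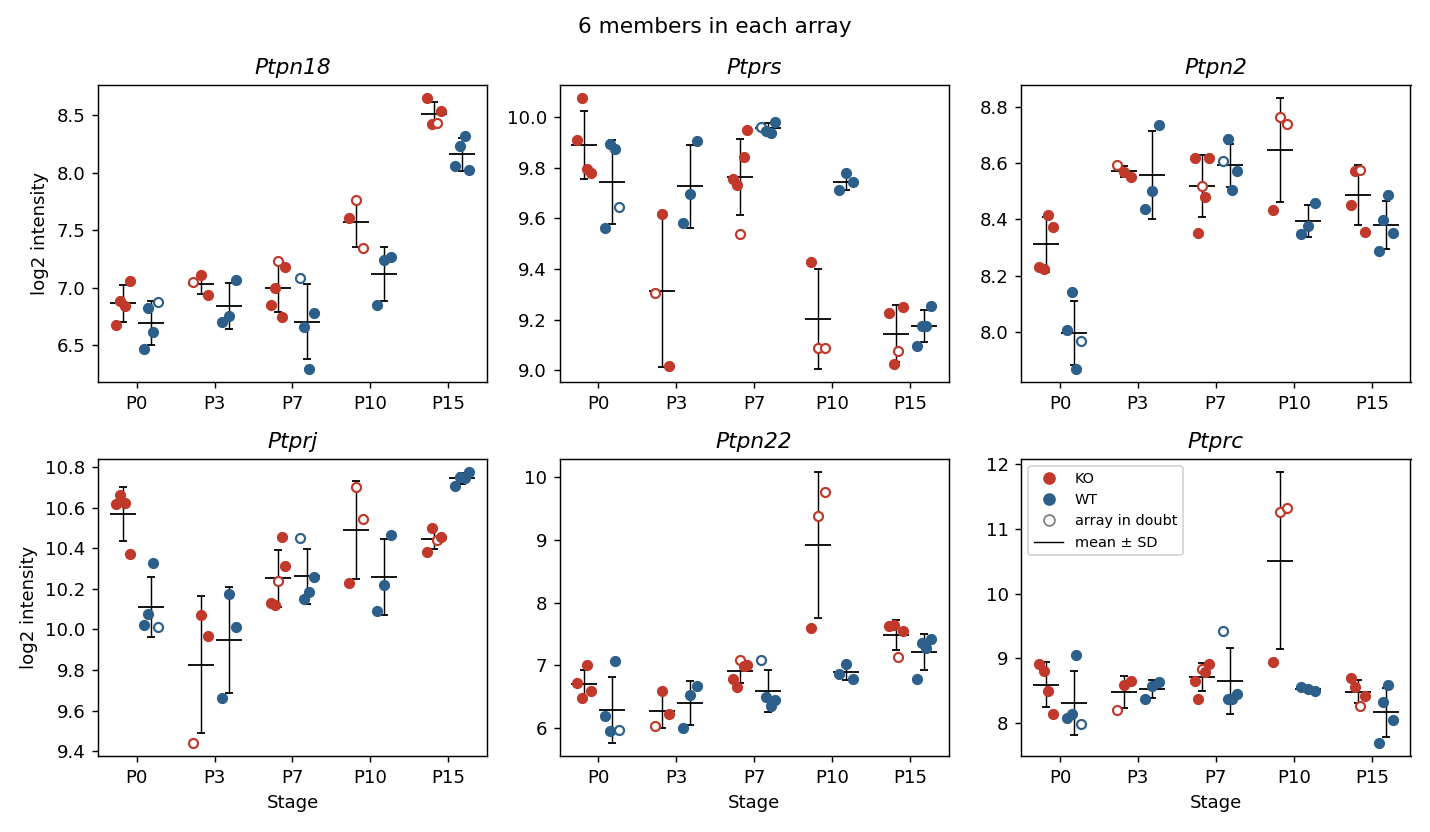
Log2 intensity (vertical axis) of 6 members in each array by stage, KO in red left of WT in blue, open points for the arrays in doubt, and the mean ± SD of each group in black. Ptpn18 is higher in KO arrays at P10 and P15 and climbs in both genotypes, Ptprj changes sides between P0 and P15, and Ptpn22 and Ptprc are high in the 2 open KO points at P10.

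Besides Ptpn1, no member was called at P3 (0.119% of all genes, 0.00593% higher and 0.113% lower), P7 (0.00593%, with 0% higher) or P15 (11.1%, 6.78% higher and 4.33% lower). Of the 35 other members 3, 1 and 5 had an unadjusted p below 0.05 at these stages. Without the 7 arrays in doubt Ptpn1 was again the only call, beside 0.0119%, 0.00593% and 11.9% of all genes. After adjustment for the scores the calls were 1, 1 and 3, beside 0.0534%, 0.00593% and 13.2%, and the added ones at P15 were Ptpn12 (-0.21) and Ptprj (-0.30). At P15 the KO and WT arrays did not overlap in 5 of 36 members, beside 19.1% of all genes. Those were Ptpn18, with KO arrays above WT arrays, and Ptprj, Ptpn13, Ptpn3 and Ptprm, with KO arrays below. Ptpn13 and Ptpn3 encode phosphatases with a FERM domain, which places them at the membrane skeleton. Ptpn13 read 6.75, 6.69, 6.77 and 6.71 in KO glands, against 6.78, 7.11, 7.04 and 7.02 in WT glands (-0.26 ± 0.13, adjusted p = 0.236). Ptprm, a receptor that binds its own kind on neighbouring cells, read 8.38, 8.48, 8.46 and 8.49 in KO glands, against 8.57, 8.64, 8.74 and 8.52 in WT glands (-0.17 ± 0.13, adjusted p = 0.505). Ptprm arrays were also apart at P0, with 9.11, 9.05, 9.12 and 9.03 in KO glands, against 9.67, 9.27, 9.53 and 9.31 in WT glands (-0.37 ± 0.13, adjusted p = 0.128). At P0 5 members did not overlap, beside 8.04% of all genes. P3 had 2, beside 8.4%, and P7 had Ptpn1 alone, beside 1.78%. At P15, 6 of 10 fibroblast and matrix markers were called lower in KO glands (median -0.49) and 4 of 9 white adipocyte markers were called higher (median 0.33), and their part in the P15 differences was not tested.

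P10 was the stage with the most calls, 16 members beside 17.2% of all genes (8.1% higher and 9.13% lower), and 15 of them other than Ptpn1. All 4 members of the blood cell list rose. Ptprc, which encodes CD45 and is found on all leukocytes, read 8.94, 11.27 and 11.33 in KO glands, against 8.55, 8.52 and 8.49 in WT glands (1.99 ± 0.38, limma adjusted p = 0.000799). Ptpn6, the SHP-1 gene, read 8.10, 10.30 and 10.22 in KO glands, against 7.74, 7.89 and 7.83 in WT glands (1.72 ± 0.29, adjusted p = 0.000482). Ptpn7, which acts on MAP kinases in lymphocytes, read 7.35, 8.61 and 8.57 in KO glands, against 7.23, 7.20 and 7.25 in WT glands (0.95 ± 0.21, adjusted p = 0.00248). For all 4 the KO arrays were above the WT arrays, and replicates 2 and 3 stood far above replicate 1. The B lymphocyte score, over 9 of 10 listed genes measured, was -0.26, 4.0 and 3.84 in the same KO arrays, against -0.31 to -0.21 in WT arrays. The T lymphocyte score, also over 9 of 10 genes, was 0.31, 3.24 and 3.25 in KO arrays, against -0.20 to -0.08 in WT arrays. Against the WT mean, KO P10 replicate 1 alone was higher by 0.41 for Ptprc, 0.28 for Ptpn6, 0.12 for Ptpn7 and 0.70 for Ptpn22. The Ptpn7 call was lost without KO P10 replicate 2 (0.73, adjusted p = 0.0515).

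Outside the blood cell list 11 members were called at P10, Ptpn18 as the one that rose and 10 that fell. Ptprg, a receptor with a carbonic anhydrase-like domain, read 8.68, 7.92 and 8.37 in KO glands, against 9.12, 8.97 and 9.29 in WT glands (-0.80 ± 0.14, limma adjusted p = 0.000572). Ptpn21, of the FERM group, read 7.70, 7.35 and 7.41 in KO glands, against 7.95, 7.86 and 7.85 in WT glands (-0.40 ± 0.08, adjusted p = 0.00103). Ptprb, which encodes VE-PTP, the endothelial partner of VE-cadherin and Tie2, read 10.14, 8.84 and 9.43 in KO glands, against 10.61, 10.26 and 10.42 in WT glands (-0.96 ± 0.21, adjusted p = 0.00216). In each of these 3 the groups did not overlap and KO P10 replicate 2 was the lowest array. The other fallen members were Ptprs (-0.54), Ptpn4 (-0.77), Ptprm (-0.54), Ptpn14 (-0.43), Ptprd (-1.0), Ptpn11 (-0.35), which encodes SHP-2, and Ptprf (-0.64), with adjusted p between 0.0025 and 0.0461. In Ptprm, Ptprd, Ptpn11 and Ptprf the KO and WT arrays overlapped. In all, 16 members did not overlap at P10, beside 25.7% of all genes.

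Without KO P10 replicates 2 and 3 limma called no member at P10, Ptpn1 included, beside 0% of all genes, while 5 members had an unadjusted p below 0.05. That fit leaves 1 KO array at P10, which is assumed to vary like the other groups, so a lost call there does not show a lost difference. Ptpn1 was -2.91 in it, against -2.72 with all arrays, and Ptpn18 (0.48) and Ptpn14 (-0.43) were also about as far from the WT mean as with all arrays. The same KO array differed by -0.44 for Ptprg, -0.18 for Ptpn21, -0.28 for Ptprb, -0.32 for Ptprs and 0.17 (opposite sign) for Ptprd. It differed by -0.37 for Ptpn4, -0.41 for Ptprf, -0.09 for Ptprm and -0.04 for Ptpn11. With all arrays these last were -0.77, -0.64, -0.54 and -0.35. Adjustment for the lymphocyte and muscle scores also left 0 calls, beside 0% of all genes, with 5 unadjusted p below 0.05. Ptpn1 was not called there either, so a lost call in that fit does not show a lost difference. With single arrays left out, Ptprb lost its call without KO P10 replicate 2 (-0.64, adjusted p = 0.0563), and Ptpn14 and Ptpn4 without that array (-0.35 and -0.55) or WT P10 replicate 1 (-0.32 and -0.55). Ptpn11, Ptprd and Ptprm lost it without WT P10 replicate 1 (-0.27, -0.77 and -0.44), KO P10 replicate 2 (-0.24, -0.55 and -0.36) or KO P10 replicate 3 (-0.31, -0.86 and -0.50), and Ptprd was -1.59 without KO P10 replicate 1. Ptpn18 lost it in 22 and Ptprf in 19 of 37 such fits. Over all 37 fits, whether the call was lost or kept, values lay between 0.31 and 0.56 for Ptpn18. For Ptprf they lay between -0.85 and -0.45. Ptprg, Ptpn21 and Ptprs kept the call in all 37. The endothelial score, over 10 of 10 genes, lay between -0.36 and 0.30 in KO P10 arrays and between 0.45 and 0.50 in WT P10 arrays, and the fibroblast and matrix score between -0.29 and -0.01 in KO and between 0.21 and 0.26 in WT arrays. Their part in the falls was not tested. With each array centred on its median the members called were 4 higher and 16 lower, against 5 higher and 11 lower as deposited. Calls among all genes at P10 moved the same way, to 941 higher and 3954 lower from 1366 and 1539 as deposited. The median of all genes moved to -0.17 from -0.03.

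**Figure D4:**
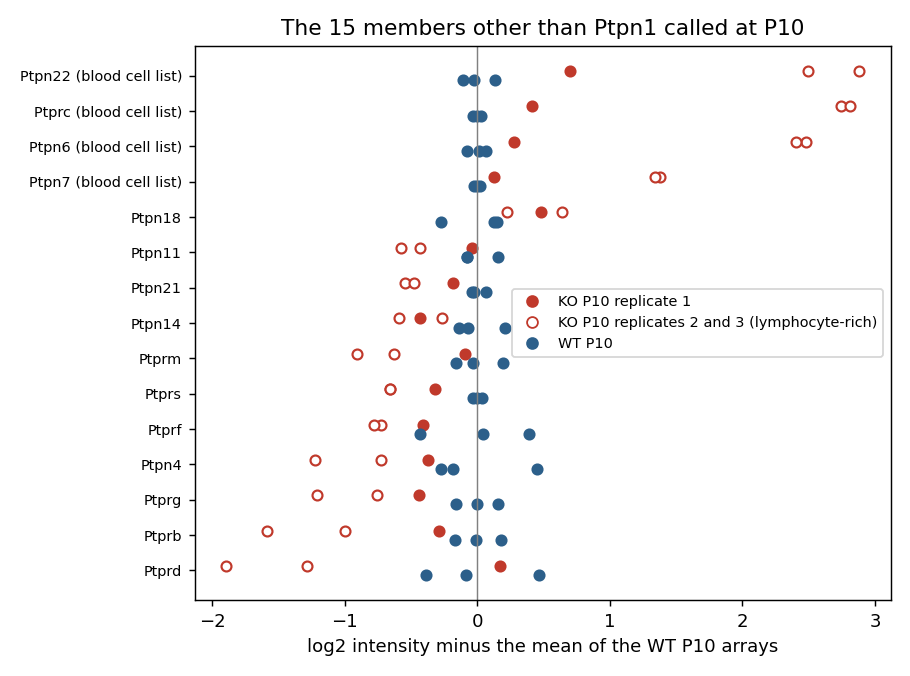
Log2 intensity of each P10 array minus the mean of the WT P10 arrays (horizontal axis) for the 15 members other than Ptpn1 called at P10, KO arrays in red above WT arrays in blue, with KO P10 replicates 2 and 3 as open points. The open points lie farthest from 0 for the 4 blood cell members and for most of those that fell, while Ptpn18 and Ptpn14 have the filled KO point between the open ones.

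The blood cell list was weaker over the stages. Besides Ptpn22, Ptprc differed by 0.52 ± 0.16 (limma adjusted p = 0.0626), Ptpn6 by 0.35 ± 0.12 (adjusted p = 0.103) and Ptpn7 by 0.13 ± 0.09 (adjusted p = 0.456). Without the 7 arrays in doubt these were 0.27 for Ptprc, 0.08 for Ptpn6 and -0.02 for Ptpn7, and without P10 they were 0.15, 0.01 and -0.07. At P0, P3, P7 and P15 none of the 4 was called and none had an unadjusted p below 0.05. Ptprc read 8.68, 8.56, 8.26 and 8.42 in KO glands at P15, against 7.69, 8.32, 8.59 and 8.04 in WT glands, with overlap. Among WT arrays the highest Ptprc value was 9.41, in the lymphocyte-rich WT P7 replicate 1.

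Whether the genotype difference varied between stages was tested with an F test, which called 10 members beside 18% of all genes. They were Ptpn6, Ptprg, Ptpn21, Ptpn22, Ptpn12, Ptprs, Ptprj, Ptpn9, Ptpn7 and Ptprc. Without P10, and also without KO P10 replicates 2 and 3, the call was left to Ptprj alone (adjusted p = 0.0195 and 0.0356), beside 6.6% and 5.47% of all genes. Ptprj was also the only call after adjustment for the scores (adjusted p = 0.0365, beside 5.14% of all genes). It kept its call in all 37 fits that left out 1 array, and lost it without the 7 arrays in doubt (adjusted p = 0.0636), where 0 members were called by limma, beside 2.92% of all genes, and 5 had an unadjusted p below 0.05. Ptpn12 and Ptprs also kept it in all 37 fits. Ptpn12 read 9.66, 9.70 and 9.75 in KO glands at P10, against 9.58, 9.58 and 9.45 in WT glands, and 9.42, 9.38, 9.26 and 9.27 in KO glands at P15, against 9.41, 9.64, 9.50 and 9.64 in WT glands. Thus its KO arrays were above the WT arrays at P10 and mostly below them at P15. Ptpn9, a phosphatase of secretory vesicles, read 9.08, 9.18, 9.01 and 9.03 in KO glands at P0, against 8.72, 9.10, 8.85 and 8.71 in WT glands, and 8.45, 8.56, 8.52 and 8.62 in KO glands at P15, against 8.59, 8.79, 8.81 and 8.73 in WT glands. It lost the F test call without WT P0 replicate 1 or 4 or KO P0 replicate 2 (adjusted p up to 0.0646). Of the others, Ptpn6, Ptpn21 and Ptpn22 lost it without KO P10 replicate 2 or 3, Ptprg without KO P10 replicate 2, and Ptpn7 and Ptprc without either of these or any 1 WT P10 array.

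For the course of pregnancy, averaged over genotypes, 11 members were called between P3 and P0 (30.1% of all genes), 11 for P7 (37.1%), 25 for P10 (41.9%) and 24 for P15 (56.4%). The 4 comparisons share their P0 arrays. The numbers higher and lower were 3 and 8 at P3 (15.7% and 14.5% of all genes), 5 and 6 at P7 (18.5% and 18.6%), 10 and 15 at P10 (19.9% and 22%), and 8 and 16 at P15 (25.4% and 31%). With each array centred on its median they were 2 and 16, 5 and 11, 8 and 20, and 6 and 24. Among all genes, centring gave 1702 higher and 4456 lower at P3, and 2338 and 5504 at P7. It gave 2467 and 5928 at P10, and 2514 and 8981 at P15. As deposited these were 2641 and 2439, 3113 and 3139, 3352 and 3714, and 4280 and 5231 in order of stage. The median of all genes at P15 moved to -0.19 from -0.03. Without KO P10 replicates 2 and 3 the P10 count was 8, beside 19.6% of all genes. Without the 7 arrays in doubt the counts were 6, 10, 7 and 26 in order of stage, beside 25.3%, 32.3%, 17.8% and 55.3%. After adjustment for the scores they were 11, 14, 9 and 25, beside 32.6%, 39.7%, 21.8% and 57.6%.

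Ptpn18 had the largest rise at P15 among the members, 1.55 ± 0.10 (limma adjusted p = 4.42e-14). The P15 values given above, 8.42 to 8.64 in KO and 8.02 to 8.32 in WT glands, compare with 6.67 to 7.06 in KO and 6.46 to 6.87 in WT glands at P0, so stages did not overlap in either genotype. It was not called at P3 or P7 (0.16 and 0.07) and was called at P10 (0.57). Within genotypes the rise at P15 was 1.64 in KO and 1.46 in WT glands.

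The adhesion receptor Ptprk rose by 1.29 ± 0.11 (adjusted p = 5.88e-11). At P15 it read 10.37, 10.40, 10.24 and 10.45 in KO and 10.28, 10.46, 10.45 and 10.44 in WT glands. At P0 it read 8.87, 9.42, 9.29 and 9.34 in KO and 8.71, 9.57, 8.83 and 8.75 in WT glands, with WT P0 replicate 2 well above the other WT arrays. It was called at P7 and P10 too (0.70 and 0.40). Ptprv, which encodes a phosphatase described in mouse bone and testis, rose by 1.09 ± 0.08 and was called from P3 on (0.34, 0.68, 0.64 and 1.09 at P3, P7, P10 and P15). Ptprf, the LAR gene, rose by 1.03 ± 0.14 and was also called at P7 (0.61). Ptpn3 rose by 0.94 ± 0.10, and its 12 probe sets gave between 0.18 and 0.94. Ptpn22 rose by 0.85 ± 0.20 (adjusted p = 0.000709). It read 7.62, 7.64, 7.13 and 7.55 in KO and 6.79, 7.36, 7.28 and 7.42 in WT glands at P15, against 6.72, 6.48, 7.01 and 6.59 in KO and 6.19, 5.95, 7.07 and 5.97 in WT glands at P0. Its stages did not overlap in KO glands and overlapped in WT glands. The other 3 blood cell members were not called at P15 against P0 (Ptprc -0.13, Ptpn6 -0.09, Ptpn7 -0.28). Ptpn2 rose by 0.28 and was called at every pregnancy stage (0.41, 0.40, 0.36 and 0.28). The last of the 8 called higher was Ptprj, whose 0.25 is the mean of unlike courses, -0.12 in KO and 0.63 in WT glands at P15 against P0.

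The deepest fall at P15 was in Ptprz1, a proteoglycan receptor with a carbonic anhydrase-like domain (-1.68 ± 0.17, limma adjusted p = 1.3e-09). It read 4.21, 4.11, 4.71 and 4.71 in KO and 4.57, 4.61, 4.54 and 4.50 in WT glands at P15. At P0 it read 5.53, 5.96, 6.90 and 6.74 in KO and 5.25, 6.81, 6.28 and 5.98 in WT glands. All P15 values were below the brightness filter of 4.96 and all P0 values above it, so the size of the fall is not exact. The differences against P0 were -0.37, -0.93, -1.48 and -1.68 at P3, P7, P10 and P15. Ptprd, which encodes PTP delta of the LAR group, fell at P15 (-1.31 ± 0.19), with 8.51, 8.84, 8.69 and 8.19 in KO and 8.69, 8.26, 8.35 and 8.24 in WT glands at P15, against 9.69, 9.76, 9.59 and 9.79 in KO and 10.26, 9.14, 10.11 and 9.92 in WT glands at P0. The next were Ptpn13 (-0.81), Ptprm (-0.73), Ptprs (-0.66) and Ptprb (-0.66), each called. These 12 largest rises and falls were called in all 37 fits that left out 1 array. The other 10 that fell were Ptpn11, Ptpn14, Ptpn4, Ptpn9, Ptpn5, Ptpro, Ptprg, Ptpru, Ptpn23 and Ptprn2, with differences between -0.52 and -0.18.

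By group, the LAR receptors split at P15, with Ptprf higher and Ptprs and Ptprd lower, and so did the MAM receptors, with Ptprk higher and Ptprm and Ptpru lower. Among the FERM phosphatases Ptpn3 rose, 3 fell and Ptpn21 was not called. The luminal epithelial score was 0.57 in KO and 0.47 in WT glands at P15, against 0.07 in KO and -0.45 in WT glands at P0. The white adipocyte score was -0.59 in KO and -0.98 in WT glands at P15, against 0.32 in KO and 0.45 in WT glands at P0, and the endothelial score was -0.30 in both genotypes at P15, against 0.10 in KO and 0.27 in WT glands at P0. Over both genotypes, 10 of 10 fibroblast and matrix markers (median -0.90), 9 of 10 macrophage markers (median -0.79) and 5 of 7 Schwann cell markers (median -0.55) were called lower at P15 than at P0. The part of these lists in the rises and falls was not tested.

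**Figure D5:**
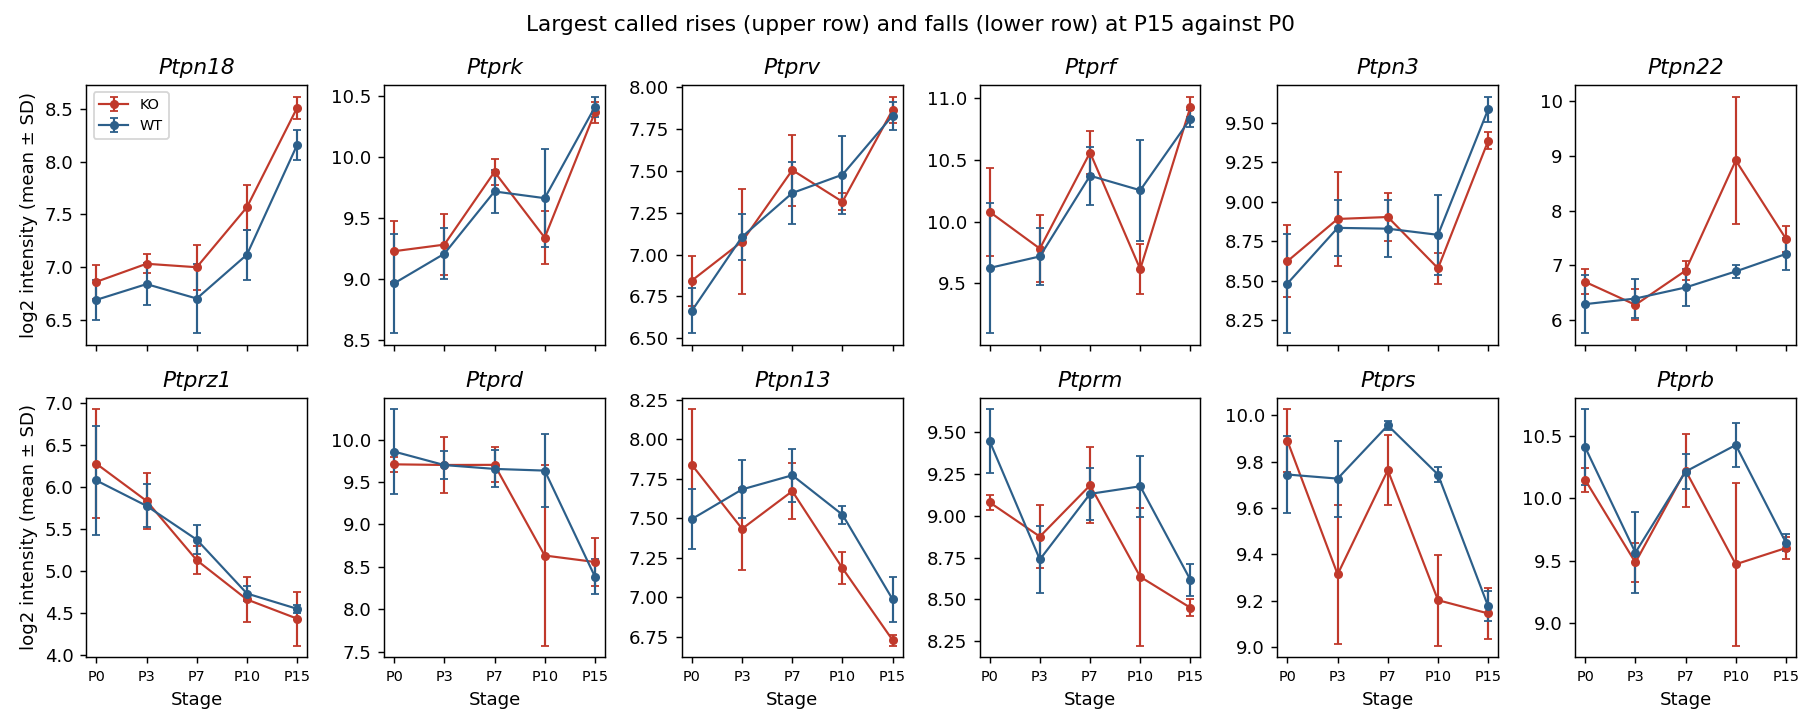
Mean log2 intensity ± SD (vertical axis) by stage for the 6 largest called rises (upper row) and 6 largest called falls (lower row) at P15 against P0, KO in red and WT in blue. Ptpn18 lies higher in KO at all 5 stages, while Ptprd, Ptprs, Ptprb and Ptprm lie lower in KO than in WT at P10, the stage with the 2 lymphocyte-rich KO arrays.

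Phosphatases outside the classical family were read from a list of 30, dual-specificity phosphatases among them, of which 28 were measured. None was called over the stages, beside 2.43% of all genes, and the median was -0.02, beside -0.01 for all genes. An unadjusted p below 0.05 was found for 7 of the 28. By stage, 1.7%, 0.119%, 0.00593%, 17.2% and 11.1% of all genes were called at P0, P3, P7, P10 and P15. Of the 28 on the list, 1 was called at P0 (higher), 7 at P10 (3 higher and 4 lower) and 1 at P15 (higher). None of them was called at P3 and P7, where 5 and 2 had an unadjusted p below 0.05. The smallest adjusted p were 0.0527 for Dusp2 (0.23), a MAP kinase phosphatase of immune cells, and 0.0838 for Dusp16 (-0.14). Dusp2 had 7.10 ± 0.55 in KO glands at P10 and 6.0 ± 0.15 in WT glands (SD, n = 3 each). Of 32 substrates and partners of PTP1B, 30 were measured and 2 were called over the stages, both lower, beside 2.43% of all genes. Beside the same shares of all genes by stage, the calls were 2 at P0 (both higher), 1 at P3 (lower) and 9 at P10 (2 higher and 7 lower). There were 3 at P15 (all lower) and 0 at P7, where 3 had an unadjusted p below 0.05. The receptor kinase Pdgfrb had a difference of -0.33 ± 0.05 (limma adjusted p = 0.000613), and all 37 fits that left out 1 array kept the call. The caveolar protein Cav1 had -0.20 ± 0.06 (adjusted p = 0.0495), a call that 28 of those 37 fits lost, and it was -0.13 (adjusted p = 0.387) without the 7 arrays in doubt. The median of the substrates was -0.05. Of the fibroblast and matrix markers 5 of 10 fell over the stages, with a median of -0.26, and their part in the Pdgfrb difference was not tested.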

How the data were processed

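The data are 1 table of 37 arrays. Per the labels' protocols, RNA was turned into sense-strand cDNA with an Ambion kit and hybridised to Affymetrix arrays. Values were deposited as log2 intensities, 1 per probe set. The affy package is named, per the submitters' processing notes, but how background was corrected and probes were summarised and normalised is not given in these sources.

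Of 34760 probe sets, the 21640 with exactly 1 gene symbol gave 19937 genes, and where a gene had several the one with the highest mean was used. The 16865 genes that passed 4.96, the 25th percentile of all values, on 3 or more arrays were tested. A model with a mean for each genotype at each stage was fitted by limma 3.58.1, run in R 4.3.3, over the 37 arrays, two-sided, with Benjamini-Hochberg adjustment over all tested genes. The fit was tested on simulated data, drawn for each gene independently around its own mean with its own spread. The simulation held no arrays rich in lymphocyte or muscle transcripts and no mislabelled array. It therefore does not bear on calls that depend on the arrays in doubt. Precision is limited by group size, which was 3 to 5 arrays.

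The members, gene lists, alternatives and the 7 arrays in doubt were chosen with earlier results of these data known, and leaving out P10 or KO P10 replicates 2 and 3 was added after seeing the data. Alternatives were a dim-gene filter left off, other scaling, the variance prior, probe set averaging, score covariates, a replicate block, single stages and arrays left out. Named in full were Ptpn1, members called between genotypes or in the F test, the 5 members outside the blood cell list with the smallest p over the stages, the blood cell members, and the 6 largest called rises and falls at P15. Lists of 27 kinds held 212 entries, of which 200 were measured.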

Additional observations from a re-analysis of the deposited data

Results flagged for a closer look

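In 10 of 150 groups tested (6.67%, where chance gives about 5%), 1 array lay far from the others of its group. A group here is 1 gene in 1 genotype at 1 stage, and the 150 are only a part of those of the 37 members. All 10 were at P0, P7 or P15. That none was at P3 or P10, with 3 arrays per group, does not show that no array there lay apart. Ptpn1 was 8.68 in the array labelled KO P15 replicate 3, against 5.36 to 5.70 in the other KO P15 arrays. WT P0 replicate 2 held Ptprf at 10.41, against 9.27 to 9.45, and Ptprk at 9.57, against 8.71 to 8.83. Both genes rose by P15. That array had a luminal epithelial score of 0.39, against -1.01 to -0.50 in the other WT P0 arrays. Its macrophage score was -0.75, against 0.04 to 0.49, and the part of these lists was not tested. WT P7 replicate 3 held Ptprb at 10.42, against 10.13 to 10.16, and Ptprm at 9.36, against 9.03 to 9.08. Ptprc was 9.05 in WT P0 replicate 3, against 7.98 to 8.14, and 9.41 in WT P7 replicate 1, against 8.36 to 8.45. Lower than their groups were Ptprb in WT P15 replicate 3 (9.54, against 9.67 to 9.69), Ptprj in KO P0 replicate 4 (10.37, against 10.62 to 10.66) and Ptprk in WT P15 replicate 1 (10.28, against 10.44 to 10.46).

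The genotype difference depended on the stage for 10 members by the limma F test. The adjusted p was 0.00778 for Ptpn6, 0.00863 for Ptprg, 0.0118 for Ptpn21, 0.0123 for Ptpn22, 0.0136 for Ptpn12, 0.014 for Ptprs, 0.0159 for Ptprj, 0.0246 for Ptpn9, 0.0254 for Ptpn7 and 0.0268 for Ptprc. Without P10 the test called Ptprj alone among them.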

How the results depend on the processing

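Of the members called, counts moved by over 1.5 times as follows; the cause was not tested, except that fits without arrays have fewer samples. The 4 called over the stages became 1 with lymphocyte and muscle covariates, without P10 and without KO P10 replicates 2 and 3, and 2 without the 7 arrays in doubt. The 3 called at P0 became 1 after quantile normalisation, without the 7 arrays and with the P0 groups fitted alone. Of all genes 143 were called higher and 32 lower at P0 after quantile normalisation, against 215 and 71 as deposited. The 16 at P10 became 0 with covariates and without KO P10 replicates 2 and 3, and 1 without the 7 arrays and with the P10 groups alone. At P15 the 1 became 3 with centring (Ptpn18 and Ptpn23 added) and 4 with quantile normalisation (Ptpn12 added to these). It became 3 with covariates (Ptpn12 and Ptprj added) and 3 with the P15 groups alone (Ptpn18 and Ptprj added). Of all genes 2311 were called higher and 337 lower at P15 with centring, and 1739 and 803 with quantile normalisation. As deposited they were 1143 and 730, and 13.2% of all genes were called with covariates. No share of all genes is given for stages fitted alone, single arrays left out, the replicate block or the F test with centring. Against P0, the 11 at P3 became 18 with centring and 6 without the 7 arrays, and the 25 at P10 became 9 with covariates, 7 without the 7 arrays and 8 without KO P10 replicates 2 and 3. The 10 of the F test became 19 with centring, 1 with covariates, 1 without P10, 1 without KO P10 replicates 2 and 3, and 0 without the 7 arrays.

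With each array left out in turn, the counts ran from 2 (without KO P10 replicate 2) to 13 (without KO P10 replicate 1) over the stages, 1 to 8 for P0, 0 to 2 for P3, 1 to 1 for P7, 7 to 18 for P10 (10 when WT P10 replicate 1 was left out, 7 when KO P10 replicate 2 was) and 1 to 3 for P15. Against P0 they ran from 8 to 13 for P3, 11 to 14 for P7, 19 to 28 for P10 and 23 to 26 for P15, and for the F test from 4 to 19. The shares of all genes called in these fits are not given, so whether all genes moved alike is not shown. The directions that turned were those of Ptpn7 over the stages (-0.0157 with covariates, -0.0206 without the 7 arrays, -0.0735 without P10 and -0.0339 without KO P10 replicates 2 and 3) and of Ptprd at P10 (0.021 with covariates, 0.17 without the 7 arrays and 0.17 without KO P10 replicates 2 and 3). No filter, a trended and robust prior and the mean of probe sets moved no count by over 1.5 times.

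Replicate numbers are shared between genotypes, but nothing in the labels pairs them, and 9 of 18 same-numbered pairs correlated above 0.1 (from -0.52 to 0.38). A replicate block gave 4 calls over the stages, 3 for P0, 1 for P3, 1 for P7, 14 for P10 and 1 for P15. Against P0 the block gave 11 for P3, 11 for P7, 23 for P10 and 23 for P15, and 11 for the F test. These counts too stand without the share of all genes.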
